A study of Mus musculus with 8 samples.

Results

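Foxo1, Fbxo32, Tsc22d3 and Fst are 4 genes of muscle wasting and muscle growth, described here in contracting and resting muscle of the same mice. They were found by gene symbol in the probe annotation. Each has 1 probe, and they are 4 of the 6370 genes named by the probes of the table. They were picked with their differences between stimulated and contralateral muscle already known, so those differences are given as a description, with no test.

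The samples are 8 extensor digitorum longus (EDL) muscles from 4 Swiss Webster mice, numbered 183, 197, 438 and 440; 7 of the 8 labels give the mice as male, and no age is given. The EDL is a fast hindlimb muscle. In each mouse the EDL of 1 leg was made to contract for 4 h through its nerve (4 stimulated muscles), and the EDL of the other leg, from the same animal and not stimulated, was the control (4 contralateral muscles). Both groups therefore share the animal and its circulation, and muscle from unstimulated animals was not analysed here. Total RNA was hybridised to 1-colour CodeLink arrays, and a level is a probe intensity in the units the authors deposited.

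Muscle mass is set by the balance of protein synthesis and breakdown. Foxo1 encodes a forkhead transcription factor that insulin and IGF signalling keeps out of the nucleus through the kinase Akt, and that drives genes of protein breakdown when that signal wanes. Fbxo32 (atrogin-1, MAFbx) is one of those targets, the substrate-binding subunit of a muscle ubiquitin ligase of the Skp1-Cul1-F-box type. Tsc22d3 (GILZ) encodes a leucine zipper protein switched on by glucocorticoids and also by FoxO factors. Fst encodes follistatin, a secreted protein that binds activins and myostatin and so blocks ligands that hold muscle growth back.

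Levels of Foxo1, Fbxo32 and Tsc22d3 were lower in stimulated than in contralateral EDL in 4 of 4 mice, and the level of Fst was higher in 4 of 4. Of all tested probes 16.8% were lower and 8.57% higher in every mouse with values. The intensity of Fbxo32 was 3.20-fold lower (log2 change -1.68 ± 0.24, SE, n = 4 mice), that of Tsc22d3 1.79-fold lower (-0.84 ± 0.15), that of Foxo1 1.46-fold lower (-0.55 ± 0.19) and that of Fst 3.31-fold higher (1.73 ± 0.42). The log2 changes subtract contralateral from stimulated log2 intensity and come from a limma fit over the 4 mice, whose moderated standard error is given as SE. In that fit across all 10406 tested probes, 2 of the 4 genes (Fbxo32 and Tsc22d3) were among the calls at adjusted p 0.05 and 2 (Foxo1 and Fst) were not, where 1.34% of all probes were called, 1.11% as higher and 0.231% as lower. This contrast is the one the genes were chosen on, so nothing is read from that count. Over all tested probes the median was -0.14, and relative to it the changes of the 4 genes were -0.41 for Foxo1, -1.54 for Fbxo32, -0.70 for Tsc22d3 and 1.86 for Fst.

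**Figure D1:**
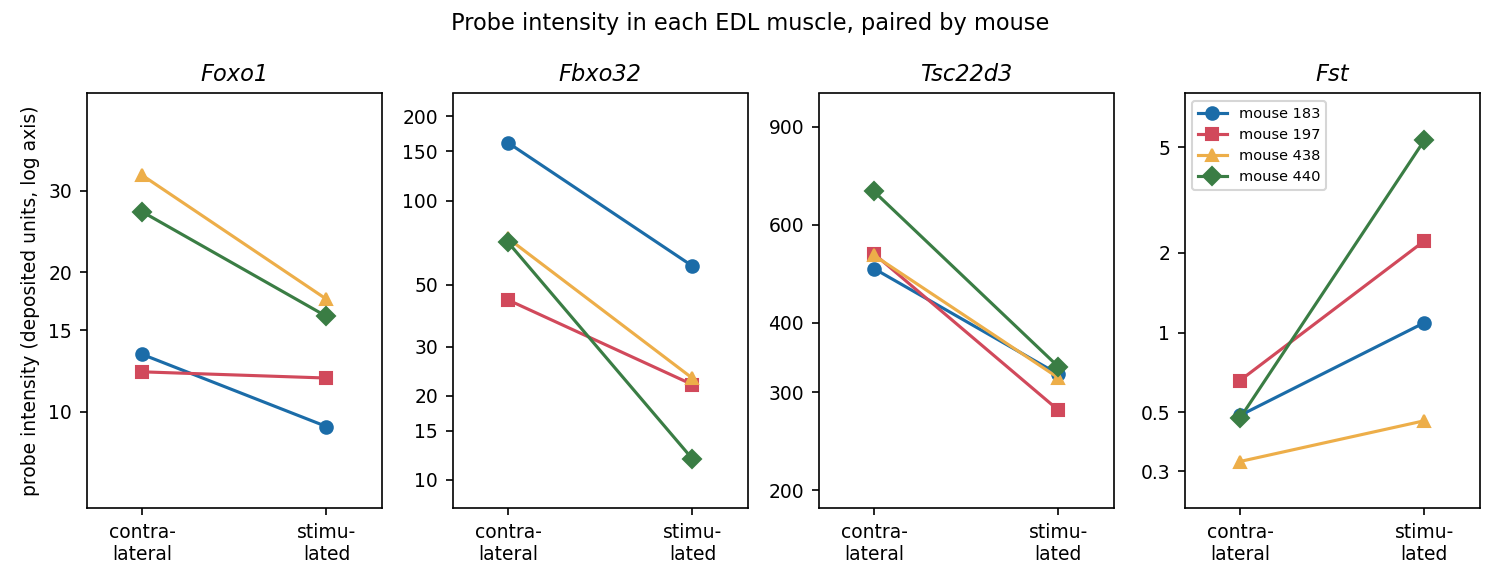
Probe intensity (deposited units, log axis, 1 panel per gene with its own range) in the contralateral and the stimulated EDL of each mouse; a line joins the 2 muscles of 1 mouse. All 4 lines slope down for Foxo1, Fbxo32 and Tsc22d3 and up for Fst, and the stimulated and contralateral values are apart without overlap for Tsc22d3 alone of the 4 genes.

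Foxo1, the regulator of the set, had contralateral intensities of 13.3, 12.2, 32.4 and 27.0 in mice 183, 197, 438 and 440. Its stimulated intensities were 9.30, 11.8, 17.5 and 16.1 in the same order. The groups overlapped, because both muscles of mice 438 and 440 were brighter than either muscle of mice 183 and 197. Within mice, the stimulated muscle was dimmer by a factor of 1.43, 1.03, 1.85 and 1.68. The log2 change of -0.04 in mouse 197 was smaller than the median change of all tested probes.

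The level of Foxo1 in resting muscle split the mice in the way many probes did. In contralateral muscle the mean intensity was 12.8 in mice 183 and 197 and 29.7 in mice 438 and 440. Of 10284 probes with values in all contralateral muscles, 48.2% were likewise brighter in both mice 438 and 440 than in both mice 183 and 197, and 10.4% were dimmer. The arrays of the 2 pairs of mice also differ in which probes lack a value, with 56 probes missing on all arrays of mice 183 and 197 alone and 25 on all arrays of mice 438 and 440 alone; no label names a batch. Within mice 183 and 197 the log2 change of Foxo1 was -0.28, and within mice 438 and 440 it was -0.82.

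The promoter of Foxo1 is shown because this gene and its known targets Fbxo32 and Tsc22d3 were lower in the same muscles. The sequence, from RefSeq on GRCm38.p6, runs from 250 bases before to 50 after the gene's start. Capitals mark matches to the CCAAT box, which reads ATTGG on the strand printed.
Foxo1 promoter (chr3:52268087-52268386, forward strand): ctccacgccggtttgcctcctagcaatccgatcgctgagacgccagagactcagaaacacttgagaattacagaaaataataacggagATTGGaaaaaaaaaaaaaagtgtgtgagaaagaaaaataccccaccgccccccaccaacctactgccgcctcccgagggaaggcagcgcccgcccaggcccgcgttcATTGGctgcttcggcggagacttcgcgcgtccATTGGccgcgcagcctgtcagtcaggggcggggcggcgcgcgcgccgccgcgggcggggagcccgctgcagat
It holds 3 CCAAT matches, which begin 162, 55 and 23 bases before the start. The share of all 32851 promoter windows of this length with at least 1 CCAAT on either strand was 37.4%. The other motifs searched on both strands were the FoxO site GTAAACA, present in 3.65% of all windows, the insulin response core CAAAACA (6.28%), the glucocorticoid receptor half-site AGAACA (19.0%), its full palindrome, which contains the half-site (0.00913%), and the cyclic AMP response half-site TGACG (20.8%). None of these letters occurred in the Foxo1 window. A match is a description of the letters and not a binding site.

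Fbxo32, the ubiquitin ligase subunit, had contralateral intensities of 161, 44.1, 73.3 and 70.9 in mice 183, 197, 438 and 440. The stimulated intensities were 58.3, 21.9, 23.1 and 11.9. Mouse 183 was the highest of the 4 mice in both muscles, and its stimulated muscle was above the contralateral muscle of mouse 197, so the groups overlapped by that muscle. Contralateral levels differed 3.65-fold between the highest and the lowest mouse, about as much as the fitted change.

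Within each mouse the stimulated muscle held less Fbxo32, by a factor of 2.76, 2.01, 3.17 and 5.96 in mice 183, 197, 438 and 440. Mouse 440 had the largest difference and mouse 197 the smallest. Leaving out 1 mouse at a time gave log2 changes from -1.90 (without mouse 197) to -1.38 (without mouse 440). Within mice 183 and 197 the change was -1.24 and within mice 438 and 440 it was -2.12. Of all 10406 tested probes, Fbxo32 had the 14th most negative change.

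Tsc22d3, the glucocorticoid-induced gene, was the most even of the 4 between mice. Its contralateral intensities were 500.2, 532, 528 and 688 in mice 183, 197, 438 and 440, and its stimulated intensities were 323, 278, 318 and 333. Every stimulated muscle lay below every contralateral muscle. Groups did not overlap for 3.33% of all tested probes, in either direction. The 4 stimulated muscles differed 1.20-fold between highest and lowest and the 4 contralateral muscles 1.38-fold.

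The change of Tsc22d3 within mice was -0.63, -0.93, -0.73 and -1.05 on the log2 scale in mice 183, 197, 438 and 440. Its size depends on the scaling: it was -0.61 after quantile normalization and -0.62 after cyclic loess, in place of -0.84. The SD of its log2 changes over the mice was 0.19, against 0.37 for Foxo1, 0.66 for Fbxo32 and 1.28 for Fst.

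RefSeq places promoters of Tsc22d3 at 3 starts on the X chromosome. The table does not say which of their transcripts the probe reads. A pair of these windows is shown because they hold the matches that the Foxo1 window lacks, with capitals on a glucocorticoid receptor half-site (TGTTCT on the strand printed) in the first and on a cyclic AMP response half-site in the second.
Tsc22d3 upstream start (chrX:140600473-140600772, reverse strand): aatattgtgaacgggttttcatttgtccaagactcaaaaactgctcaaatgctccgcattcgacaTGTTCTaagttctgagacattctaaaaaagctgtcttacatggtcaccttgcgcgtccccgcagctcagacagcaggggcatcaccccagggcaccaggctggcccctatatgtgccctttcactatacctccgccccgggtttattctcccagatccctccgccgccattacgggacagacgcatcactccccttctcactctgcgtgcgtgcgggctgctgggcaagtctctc
Tsc22d3 middle start (chrX:140548522-140548821, reverse strand): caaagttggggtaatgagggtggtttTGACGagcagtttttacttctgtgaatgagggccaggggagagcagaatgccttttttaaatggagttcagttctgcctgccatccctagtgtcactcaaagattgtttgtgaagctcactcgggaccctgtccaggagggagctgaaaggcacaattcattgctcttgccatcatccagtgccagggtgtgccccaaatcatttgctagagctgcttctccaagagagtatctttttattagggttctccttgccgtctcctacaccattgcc
The half-site of the upstream start begins 185 bases before it and the cyclic AMP half-site of the middle start 224 bases before it. In the window of the remaining start (chrX:140542619-140542918) none of the 6 motifs occurred, and the FoxO site occurred in none of the Tsc22d3 windows. Half-sites of these kinds are common, at 19.0% and 20.8% of all windows.

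Fst, the secreted antagonist of activins and myostatin, was dim in resting muscle. Its contralateral intensities were 0.487, 0.660, 0.326 and 0.475 in mice 183, 197, 438 and 440, all below the median of their own array (0.90 to 0.94). Its stimulated intensities were 1.09, 2.22, 0.465 and 5.32. Stimulated muscle of mice 183, 197 and 440 lay above every contralateral muscle, while that of mouse 438 lay within the contralateral range. The table has no detection call per probe; all 8 values were above the floor of 0.0937 that was set on the intensities.

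The difference in Fst within mice varied widely in size, with the stimulated muscle brighter 2.24-fold, 3.36-fold, 1.43-fold and 11.2-fold in mice 183, 197, 438 and 440. Leaving out mouse 440 took the log2 change from 1.73 to 1.14 (2.21-fold), and leaving out mouse 438 took it to 2.13. In the stimulated muscle of mouse 440 the summed intensity of 11 leukocyte markers was 582, against 31.4 to 106 in the other stimulated muscles and 28.1 to 137 in contralateral ones. Most of that sum was the neutrophil and monocyte protein S100a8 (418) and the endotoxin co-receptor Cd14 (116), while the pan-leukocyte marker Ptprc read 1.08 there and 0.0426 to 0.471 in the other muscles. The markers did not all move that way in mouse 440: 8 of 12 measured were higher in its stimulated muscle and 4 lower, among them the lysozyme Lyz1 (16.2 to a value below the floor) and the chemokine receptor Ccr2 (0.599 to 0.189). For 8 markers of fibroblasts and fibro-adipogenic cells, which also make follistatin, the sums were 78.6 to 288 in stimulated and 79.4 to 275 in contralateral muscle. The part of these cells in the Fst values was not tested.

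**Figure D2:**
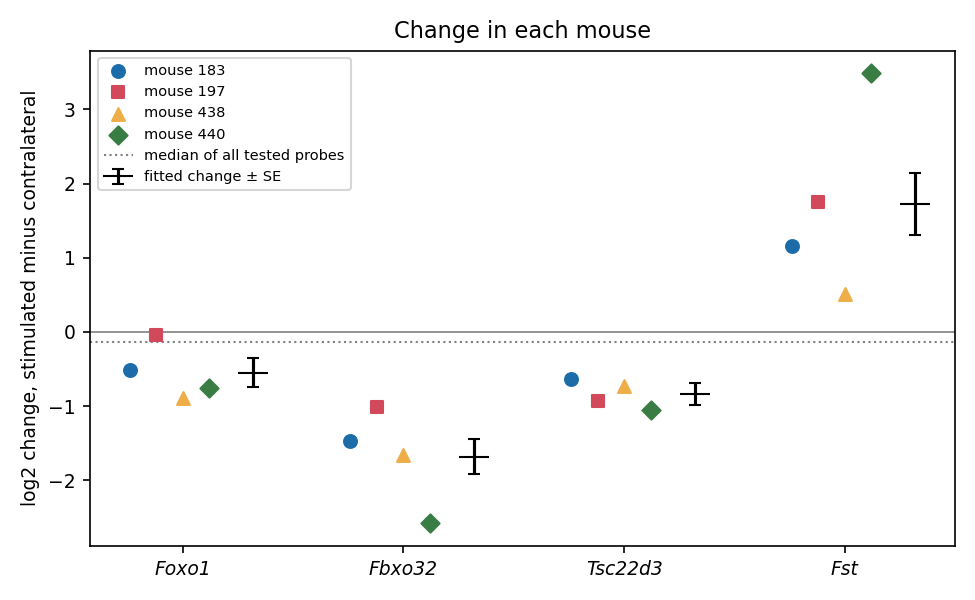
Log2 change (stimulated minus contralateral) of each gene in each mouse, with the fitted change and its SE beside it and the median of all 10406 tested probes as a dotted line. Mouse 440 (diamonds) has the largest change in Fbxo32, Tsc22d3 and Fst, and mouse 197 (squares) has almost none in Foxo1.

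The order of the mice differed between genes. By size of change the order was 438, 440, 183 and 197 for Foxo1 and 440, 438, 183 and 197 for Fbxo32. For Tsc22d3 it was 440, 197, 438 and 183, and for Fst 440, 197, 183 and 438. Mouse 438 thus had the largest change in Foxo1 and the smallest in Fst. With 4 mice no relation between the genes was tested.

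In whole muscle, fewer cells of a type and less RNA per cell cannot be told apart. Transcripts of fast fibres, which make up most of the EDL, were themselves dimmer in stimulated muscle: all 10 measured fast fibre markers had negative changes, with a median of -0.47, and their summed intensity was 8257 to 16575 in contralateral and 5671 to 10332 in stimulated muscle. None of the 10 passed in limma (6 lower at unadjusted p under 0.05, where 8.49% of all tested probes were lower and 6.74% higher). Slow fibre markers, much dimmer here, had a median of 0.67, with 4 of 5 positive and 0 past the threshold in limma (3 higher at unadjusted p under 0.05). The slow troponins Tnnc1 (1.38 ± 0.32) and Tnnt1 (1.04 ± 0.24) had the most positive changes of the 5 (adjusted p 0.089 for each), and the summed intensity was 28.6 to 76.4 in contralateral and 43.0 to 145 in stimulated muscle. The part of the fibre types in the values of the 4 genes was not tested. The lowest single value among the 10 fast markers on any array was 158, far above the array medians, so the genes that define a fast muscle were bright on all 8 arrays. On the intensities as deposited, the change of Foxo1 (-0.55) was close to that fast fibre median, and those of Tsc22d3 (-0.84) and Fbxo32 (-1.68) were more negative. After quantile normalization and cyclic loess, Foxo1 was at -0.53 and -0.47, Tsc22d3 at -0.61 and -0.62 and Fbxo32 at -1.61 and -1.56. The fast fibre median is given for the deposited scaling alone, so nothing is read from this comparison. Of 10 satellite cell markers 1 rose, the proteoglycan Sdc4 (2.16-fold, adjusted p 0.0164 with limma), where 1.11% of all probes rose. These 10 markers had a median of 0.39, with 9 positive and 1 negative. Their summed intensity was 80.9 to 127 in contralateral and 123 to 158 in stimulated muscle. The part of satellite cells in the values of the 4 genes was not tested. Of 7 endothelial markers 0 passed in limma (1 higher at unadjusted p under 0.05, beside 6.74% of all probes). None of the marker genes summed was below the floor on every array.

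The other genes of these pathways were taken from 7 lists, with 140 genes measured. In limma's test across all probes 3 rose (2.14%) and 2 fell (1.43%), beside 1.11% and 0.231% of all probes, and 135 did not pass. The lists were chosen with earlier results of these data known, so nothing is read from the difference between these shares. The genes that rose were Klf2, Id3 and Socs3, and those that fell were Txnip and Pdk4. Their median change was -0.09, beside -0.14 for all probes. The calls depend on the choice of mice and on the processing: 0 of the 140 passed without mouse 183, with the floor at the 20th percentile, or in a paired test without moderation. Without mouse 197, 1 rose and 0 fell, without mouse 438, 3 rose and 1 fell, and without mouse 440, 5 rose and 3 fell, with all of Klf2, Id3, Socs3, Txnip and Pdk4 among them.

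**Figure D3:**
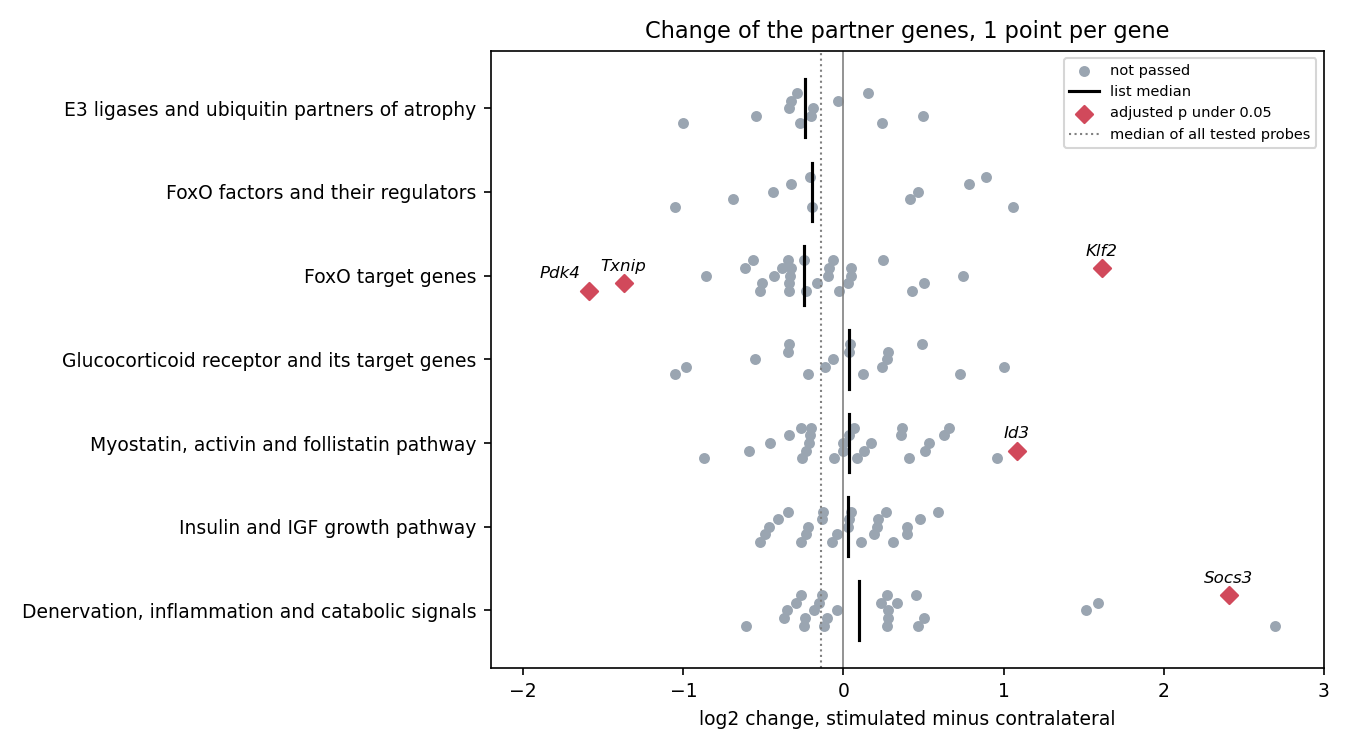
Log2 change of the measured genes of 7 pathway lists (1 point per gene, brightest probe; a gene on several lists appears in each), with list medians as black bars. Diamonds mark the 5 genes past adjusted p 0.05: Pdk4 and Txnip on the left, Klf2, Id3 and Socs3 on the right.

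Genes that FoxO factors are known to control moved in both directions. Of 29 measured, 2 fell, 1 rose and 26 did not pass, with a list median of -0.25. Over all tested probes 0.231% fell and 1.11% rose. Pdk4, a kinase that restrains pyruvate oxidation, had contralateral intensities of 183, 81.4, 33.0 and 38.4 in mice 183, 197, 438 and 440 and stimulated intensities of 70.4, 26.4, 5.37 and 23.0. It fell 3.01-fold (log2 change -1.59 ± 0.27, adjusted p 0.024 with limma), lower in 4 of 4 mice, and as for Fbxo32 mouse 183 was highest in both muscles. Txnip, an inhibitor of thioredoxin and of glucose uptake, fell 2.59-fold (-1.37 ± 0.19, adjusted p 0.0117), with 119 to 169 in contralateral and 35.8 to 85.1 in stimulated muscle and no overlap. Klf2, a Krüppel-like factor of endothelium and lymphocytes, rose 3.06-fold (1.61 ± 0.23, adjusted p 0.0142, higher in 3 of 3 mice), since the contralateral muscle of mouse 183 has no value.

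The remaining FoxO targets did not pass. Catalase (Cat), which breaks down hydrogen peroxide, had a log2 change of -0.86 ± 0.18 and was lower in 4 of 4 mice (adjusted p 0.0654 with limma). Autophagy genes, named here after their values were seen, ranged from Bnip3l (-0.52 ± 0.21), a receptor for removal of mitochondria, to the lysosomal protease Ctsl (0.05 ± 0.21). The FoxO target Gabarapl1, which tags autophagosomes, stood at -0.09 ± 0.23 and the transcription factor Klf15 at -0.06 ± 0.38, both also named after their values were seen. Klf15 was dim, at 0.0474 to 0.409 with 2 arrays below the floor. Its changes ran from -1.33 to 0.91 over the mice, so its value near 0 does not show a steady level.

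Among 11 FoxO factors and regulators 0 passed in limma (4 higher and 3 lower at unadjusted p under 0.05, beside 6.74% and 8.49% of all probes). Sgk1, a kinase that phosphorylates FoxO factors and is itself induced by glucocorticoids, had contralateral intensities of 46.0, 62.2, 39.6 and 32.5 and stimulated intensities of 21.4, 18.7, 18.6 and 26.5 in mice 183, 197, 438 and 440. All its stimulated values were below all contralateral ones (log2 change -1.05 ± 0.23, adjusted p 0.0679), and mouse 440, with the largest changes in Fbxo32, Tsc22d3 and Fst, had the smallest in Sgk1 (-0.29). The repressor Bcl6 (0.89 ± 0.23), the kinase Map3k14 (1.06 ± 0.32) and the 14-3-3 protein Ywhaz (0.78 ± 0.24, n = 3), of a family that holds FoxO factors in the cytoplasm, had positive changes. Foxo4, another FoxO factor, named after its values were seen, stood at -0.21 ± 0.33, positive in mice 183 and 197 and negative in mice 438 and 440.

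Ubiquitin ligases and their partners showed 0 of 12 genes past the threshold in limma (1 higher and 1 lower at unadjusted p under 0.05, close to the 6.74% and 8.49% of all probes), with a median of -0.24. Skp1, which links F-box proteins such as Fbxo32 to the ligase core, had a log2 change of -0.34 ± 0.16. The core subunits Cul1 (0.16 ± 0.19) and Rbx1 (-0.19 ± 0.17), named after their values were seen, did not pass. The ubiquitin-conjugating enzyme Ube2g1 was at -0.54 ± 0.21 and the ligase Nedd4 at 0.50 ± 0.20. The proteasome-bound deubiquitinase Usp14 was at -1.003 ± 0.65, a value that rests on mouse 440 (-4.24), without which it was 0.07. Of the 4 genes described, Fbxo32 is the ligase subunit, and its change of -1.68 lay beyond the range of this list (-1.003 to 0.50). Fbxo32 was chosen with its change known, so nothing is read from that. Only 12 of the 25 genes listed were measured, and Trim63 was not among the measured genes.

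Of 17 measured glucocorticoid-responsive genes 0 passed in limma (1 higher and 3 lower at unadjusted p under 0.05, beside 6.74% and 8.49% of all probes), with a median of 0.04. Fkbp5, a receptor cochaperone and a standard glucocorticoid target, had contralateral intensities of 5.39, 4.82, 5.70 and 6.99 and stimulated intensities of 2.50, 3.61, 3.22 and 2.32 in mice 183, 197, 438 and 440. As for Tsc22d3, the groups did not overlap, mouse 440 had the highest contralateral level and the largest change, and the fitted change was -0.99 ± 0.23 (adjusted p 0.0854 with limma). Glul, glutamine synthetase, was at -0.55 ± 0.17 and lower in 4 of 4 mice. Its size depends on the scaling, with -0.22 after quantile normalization and -0.33 after cyclic loess. Dusp1, a phosphatase of MAP kinases that glucocorticoids and contraction both induce, was at 1.01 ± 0.26 and higher in 4 of 4. The receptor gene Nr3c1 was dim and stood at 0.49 ± 0.28.

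In the myostatin and activin pathway, on which follistatin acts, 1 of 27 genes rose, 0 fell and 26 did not pass, with a median of 0.04. Over all tested probes 1.11% rose and 0.231% fell. Id3, a helix-loop-helix inhibitor that BMP signals induce, rose 2.12-fold (1.08 ± 0.19, adjusted p 0.0265 with limma), with changes from 0.73 to 1.44 over the 4 mice. Mstn, myostatin itself, had contralateral intensities of 28.4, 39.1, 53.0 and 46.7 and stimulated intensities of 40.8, 28.9, 61.8 and 41.8 in mice 183, 197, 438 and 440. It was higher in 2 mice and lower in 2 (0.04 ± 0.20). Acvr2b, a receptor for myostatin and activins, was at -0.26 ± 0.20, the type I receptor Acvr1 at 0.63 ± 0.27 and the BMP antagonist Grem1 at -0.87 ± 0.42.

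A relative and a ligand of follistatin shared its leading mice, which was noticed after their values were seen. Fstl1, a secreted follistatin-like protein, changed by 0.60, 1.22, 0.36 and 1.67 in mice 183, 197, 438 and 440 (fitted 0.96 ± 0.27, adjusted p 0.143 with limma). Inhba, the subunit of activin A, which follistatin binds, changed by -0.004, 0.57, 0.03 and 2.05 (0.66 ± 0.33), and by 0.20 without mouse 440. Mouse 440 was highest and mouse 197 next in each, as for Fst. The interleukin Il6, from the list of catabolic signals, changed by 2.03, 2.73, 0.85 and 5.15 (2.69 ± 0.54, adjusted p 0.0507), in the same order as Fst and Fstl1. Its change was 1.87 without mouse 440 and 3.31 without mouse 438, and it passed in both cases (adjusted p 0.016 and 0.0219 with limma), as it did with the floor at the 1st percentile (0.0488).

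Of 26 denervation, inflammation and catabolic genes 1 rose, 0 fell and 25 did not pass, with a median of 0.10. Over all tested probes 1.11% rose and 0.231% fell. Socs3, an inhibitor of cytokine signalling that is induced by interleukins of the Il6 family, rose 5.30-fold (2.41 ± 0.33, adjusted p 0.0117 with limma). Tnfrsf12a, the receptor of the wasting cytokine TWEAK, was at 1.51 ± 0.49 and higher in 3 of 4 mice, and was 0.91 without mouse 440 and 2.20 without mouse 438, where it passed (adjusted p 0.0318). Il1b was at 1.59 ± 0.56 and at 0.75 without mouse 440.

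Insulin and IGF pathway genes showed 0 of 25 past the threshold in limma (0 higher and 1 lower at unadjusted p under 0.05, below the 6.74% and 8.49% of all probes), with a median of 0.03. Tsc2, a brake on the growth kinase mTOR, was at -0.49 ± 0.18 and lower in 4 of 4 mice. The cap-binding factor Eif4e was at 0.59 ± 0.29, its inhibitor Eif4ebp2 at -0.47 ± 0.24 and Akt1 at 0.48 ± 0.27, of which 1.54 in mouse 440. Igf1 (-0.07 ± 0.24) and Mtor (-0.04 ± 0.22) had the smallest changes among the genes named in this list. Transcript levels do not measure the phosphorylation through which Akt acts on FoxO1.

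The genes with the most similar pattern were sought by Pearson's r of log2 intensity over the 8 arrays, among 5169 other genes above the floor on every array. The arrays come in pairs from 4 mice and the highest r is picked from many, so the values describe likeness alone. For Foxo1 these were Eef1akmt1 (r = 0.97), Pde1c (0.97) and Mrfap1 (0.97), which share its split between pairs of mice. For Fbxo32 they were Poli (0.97), Tacc2 (0.97) and Zfp120 (0.93), with log2 changes of -0.55, -0.75 and -0.72. For Tsc22d3 they were H2-T24 (0.97), Npy1r (0.96) and Rxra (0.95), and for Fst Timp1 (0.98), Ccnl1 (0.98) and Thbd (0.97), with log2 changes of 2.79, 1.01 and 1.83.

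**Figure D4:**
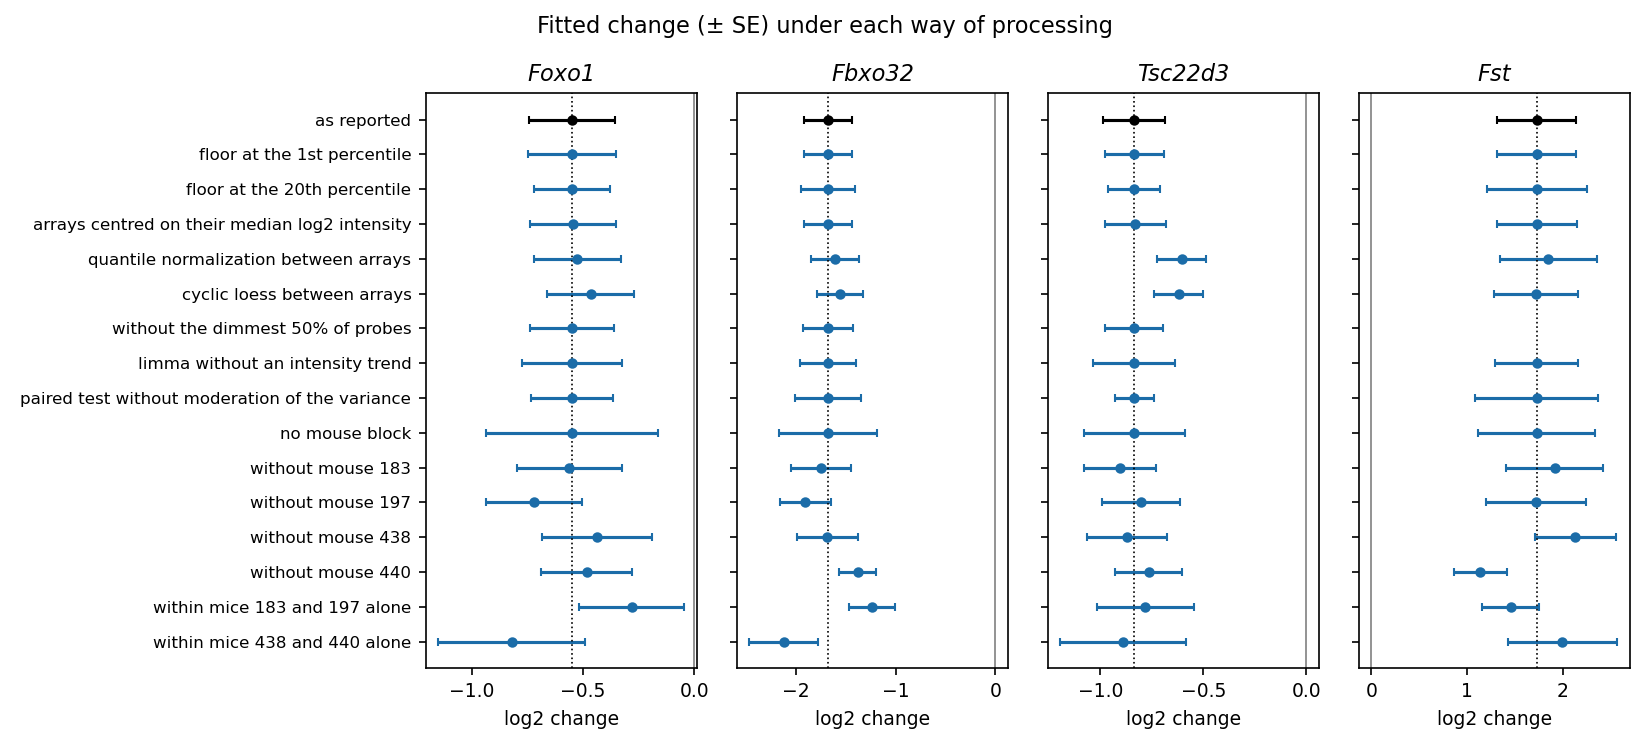
Fitted log2 change and SE of each gene as reported (black) and under 15 other ways of processing or choices of mice (blue; 14 for Fst, which is not among the brighter 50% of probes). All values keep the sign of the reported one, which leaving out mice could not turn, since all mice share it. Fst moves furthest without mouse 440 (1.14), and Fbxo32 lies at -1.24 within mice 183 and 197 and at -2.12 within mice 438 and 440.

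The 4 changes kept their sign under each of these alternatives, but most of them could not turn it. Each gene had the same sign in all 4 mice, so leaving out mice cannot reverse it. The floors, the variance model, the mouse block and the removal of dim probes left the fitted changes as they were. With all 4 mice kept, the normalizations alone moved them. Over the alternatives that kept all 4 mice, Foxo1 ranged from -0.55 to -0.47, Fbxo32 from -1.68 to -1.56, Tsc22d3 from -0.84 to -0.61 and Fst from 1.72 to 1.85. Leaving out 1 mouse moved Foxo1 from -0.72 (without mouse 197) to -0.44 (without mouse 438). Leaving out 1 mouse moved Foxo1, Fbxo32 and Fst over a wider range than these alternatives did, and Tsc22d3 over a narrower one (-0.90 to -0.77).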

How the data were processed

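Transcripts of 8 EDL muscles, 4 stimulated and 4 contralateral, were read on 1-colour CodeLink arrays, and 6 bacterial mRNAs served to scale them, per the labels' protocols. The table deposited by the authors gives linear intensities that they had normalized. Beyond the naming of these mRNAs, the sources used here do not give how arrays were scaled, nor how background was corrected. Array medians were 0.90 to 0.94, so values were used without further scaling. Number of arrays limits precision.

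Intensities below 0.0937, the 5th percentile of positive values, were raised to it before log2. Despite the similar medians, arrays differed in how many probes lay below this floor. In mice 183, 197, 438 and 440 these were 1387, 708, 358 and 277 in stimulated and 619, 579, 238 and 80 in contralateral muscle. A probe needed both muscles in at least 3 mice (10406 probes). All 6373 symbols were matched through Entrez identifiers to the GRCm38.p6 gene table. limma 3.58.1 (R 4.3.3) was fitted with a mouse block and a variance trend on intensity, with Benjamini-Hochberg adjustment, two-sided. It was also run on simulated data with normal noise whose SDs were shuffled over the probes. That run holds no variance trend on intensity, so it cannot test this part of the fit. The pairing comes from the titles. Deviations from group means correlated at 0.59, 0.64, 0.58 and 0.52 within mice 183, 197, 438 and 440. Between different mice they correlated at 0.18 to 0.45 for 183 with 197 and 438 with 440. Across these pairs of mice the values were -0.60 to -0.30, so the within-mouse values also carry the split between the pairs.

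The 4 genes and all lists were chosen with earlier results of these data known. Named partner genes are those past the threshold, the 4 of smallest p per list, 11 fixed genes where measured, and the 3 of most similar pattern per gene, unless a sentence says otherwise. Lists use the brightest probe per gene. Floor, normalization, dim probes, variance model, pairing and single mice were varied.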

Additional observations from a re-analysis of the deposited data

Results flagged for a closer look

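A single muscle was far from the other 3 of its group by Dixon's criterion in 3 of 72 groups examined over 37 genes, where chance gives about 1 in 20, and none of these was in Foxo1, Fbxo32, Tsc22d3 or Fst. The gap over range given for each was taken on log2 intensity. The intensities printed are linear and would give other ratios, so the criterion depends on that scale. Dusp1 in stimulated muscle of mouse 438 read 4.63, against 11.4 to 12.7 in the other stimulated muscles (gap over range 0.888 on log2 intensity). Eif4e in contralateral muscle of mouse 197 read 87.5, against 31.4 to 35.6 in the others (0.877), so its positive fitted change comes from the other 3 mice. Tnfrsf12a in contralateral muscle of mouse 440 read 1.15, against 6.71 to 9.62 (0.83), and mouse 440 also had its largest change.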

How the results depend on the processing

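Under the normalizations run, the changes of Foxo1, Fbxo32 and Fst moved by less than the SD between mice. That of Tsc22d3 moved by more after quantile normalization (-0.605) and cyclic loess (-0.621). Quantile normalization and cyclic loess moved the median change of all probes from -0.14 to -0.06 and -0.01, in that order. By arithmetic, leaving out mice cannot move a mean change by as much as that SD. The SD is therefore no test of stability for the choices of mice. The alternatives of the floor, the variance model and the mouse block left the changes of these genes as they were. Counts of calls depended on the alternative. In place of 115 probes higher and 24 lower, and of 3 partner genes higher and 2 lower, there were 0, 0, 0 and 0 after raising the floor to the 20th percentile, in a paired test without moderation, and within mice 183 and 197 (1296, 1208 and 855 probes at unadjusted p under 0.05). Without an intensity trend there were 45, 5, 1 and 0, without mouse as a block (no pairing) 1, 0, 0 and 0, and within mice 438 and 440 there were 70, 9, 1 and 0; cyclic loess left 1 partner gene lower. Without 1 mouse, probes higher ranged from 7 (without mouse 183) to 166 (without mouse 440), probes lower from 0 to 29, partner genes higher from 0 to 5 and partner genes lower from 0 to 3. Of the partner genes, Klf2 and Socs3 passed under 8 alternatives each, Txnip under 7, Id3 under 6 and Pdk4 under 5, of 15 (14 for Klf2). Signs turned only for values near 0 or resting on 1 mouse: Mtor was at 0.014 after cyclic loess and 0.035 within mice 438 and 440, Igf1 at 0.106 within mice 438 and 440 and Usp14 at 0.123 within mice 183 and 197, and leaving out single mice put Mtor between -0.203 and 0.174, Igf1 between -0.203 and 0.006, Usp14 between -1.557 and 0.075 and Mstn between -0.125 and 0.195. The cause of these differences was not tested. Fst could not be given without the dimmest 50% of probes, since it is among them. The low intensity of Fst limits how firmly its size can be stated.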
